A study of Homo sapiens with 7 samples.

Results

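The OCA-B list holds the sites at which chromatin immunoprecipitation followed by sequencing (ChIP-seq) found OCA-B in OCI-Ly7 cells, a human line derived from a diffuse large B-cell lymphoma. Its members are all peaks of the deposited OCA-B table on chromosomes 1 to 22 and X, which came to 55361 of the 323423 peaks that the 6 ChIP tables of the study hold on these chromosomes. The study mapped OCA-B, the POU factors OCT1 and OCT2, and the cofactors EP300, CREBBP and MED1 in OCI-Ly7 cells grown in suspension. The labels name no genetic change and no treatment, and all libraries come from this 1 line. Each protein had 1 library, and each was called against the same input library. The OCA-B library, made with an antibody of the catalogue number ab92315, held 21782856 tags, of which 19965282 stayed after removal of duplicates, and the input held 37517450 after the same step. With 1 library and no replicate, every value below describes this library, and no p-value is given.

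OCA-B, encoded by POU2AF1, is a transcriptional coactivator found mainly in B cells. It has little affinity for DNA by itself and is held there by the POU domain of OCT2 or OCT1, on the octamer sequence ATGCAAAT or close variants of it. Octamers are known from the promoters and enhancers of immunoglobulin genes and from histone H2B promoters, and mice without OCA-B do not form germinal centres. MED1 belongs to the Mediator complex, and CREBBP and EP300 are related acetyltransferases.

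The promoters with the strongest OCA-B peaks over an octamer are shown first, because the octamer is the sequence through which OCA-B is known to reach DNA. RefSeq promoter windows on GRCh38.p14 were used, which run from 250 bases before to 50 bases after a gene start, and only bases before the start are printed. Each sequence runs 5′ to 3′ along the strand of the gene. Capitals mark ATGCAAAT or its reverse complement. The first 6 are the promoters of highest OCA-B fold enrichment that hold the octamer upstream of the start.
PIM2, chrX:48919127-48919234, minus strand: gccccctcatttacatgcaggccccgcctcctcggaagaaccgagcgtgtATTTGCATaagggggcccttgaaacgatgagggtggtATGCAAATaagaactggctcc
INTS6L, chrX:135520507-135520614, plus strand: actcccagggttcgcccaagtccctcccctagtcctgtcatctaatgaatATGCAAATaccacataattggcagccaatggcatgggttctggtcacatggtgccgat
PRRC2A, chr6:31620467-31620574, plus strand: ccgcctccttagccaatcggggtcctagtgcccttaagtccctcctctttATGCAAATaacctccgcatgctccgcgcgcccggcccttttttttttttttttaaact
POLM, chr7:44082639-44082746, minus strand: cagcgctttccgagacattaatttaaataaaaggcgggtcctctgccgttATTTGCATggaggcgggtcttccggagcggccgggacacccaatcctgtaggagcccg
LOC124902631, chr11:11261795-11261880, minus strand: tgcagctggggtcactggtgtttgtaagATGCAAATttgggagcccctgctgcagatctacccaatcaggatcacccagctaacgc
E2F3, chr6:20401752-20401859, plus strand: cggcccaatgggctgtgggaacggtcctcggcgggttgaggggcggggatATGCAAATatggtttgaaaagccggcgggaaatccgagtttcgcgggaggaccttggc
PIM2, a survival kinase gene, had an OCA-B fold of 68.3 over the input and carries the octamer 2 times, once in each orientation, and the summit fell 0.5 bp from the centre of one of them. INTS6L, a relative of an Integrator subunit gene, had a fold of 50.5 with the summit 19.5 bp from the octamer. PRRC2A had a fold of 47.7 (31.5 bp), POLM, a DNA polymerase gene of end joining, 47.2 (1.5 bp), the lncRNA gene LOC124902631 47.2 (15.5 bp) and E2F3, a cell cycle transcription factor gene, 46.1 (35.5 bp). In all 6 the summit thus lay within 50 bp of an octamer.

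A pair of further promoters was added after their values were seen, since POU2F1 encodes the OCA-B partner OCT1 and H2B promoters are the textbook octamer promoters.
POU2F1, chr1:167328841-167328948, plus strand: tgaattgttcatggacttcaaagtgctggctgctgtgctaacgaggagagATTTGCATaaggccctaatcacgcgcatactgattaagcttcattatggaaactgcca
H2BC21, chr1:149886683-149886778, minus strand: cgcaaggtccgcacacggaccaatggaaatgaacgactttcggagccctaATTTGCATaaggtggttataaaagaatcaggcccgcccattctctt
The OCA-B fold was 34.7 at POU2F1, with the summit 10.5 bp from the octamer, and 36.4 at the histone gene H2BC21, with the summit 8.5 bp from it. The strongest OCA-B peaks with a summit in a promoter window that holds no octamer are shown for contrast.
CENPU, chr4:184734230-184734337, minus strand: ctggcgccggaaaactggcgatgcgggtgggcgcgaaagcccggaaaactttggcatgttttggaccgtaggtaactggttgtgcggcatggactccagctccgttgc
LOC107984227, chr10:45727183-45727290, minus strand: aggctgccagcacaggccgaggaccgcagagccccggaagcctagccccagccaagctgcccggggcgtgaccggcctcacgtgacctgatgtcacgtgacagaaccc
CENPU, a centromere protein gene, had a fold of 54.2 and the lncRNA gene LOC107984227 one of 47.3. The LOC107984227 summit lay 7 bp after the start, outside the printed bases. A strong OCA-B peak was thus also seen over a promoter without an exact octamer.

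OCA-B peaks overlapped 8038 of 34960 promoter windows (23%). The octamer was present in 191 (2.38%, 95% Wilson interval 2.07 to 2.73) of the windows with an OCA-B peak and in 427 (1.59%, 1.44 to 1.74) of the 26922 windows without one, against 1.77% of all windows. Both strands were searched. The difference between windows with and without a peak was small, and the share with an octamer was highest under the strongest peaks. It was present in 1.09% of windows with an OCA-B fold under 4, in 0.772% at 4 to 6, in 1.07% at 6 to 8 and in 1.48% at 8 to 12. It was 3.11% at 12 to 16, 7.81% at 16 to 24 (5.91 to 10.3) and 19.4% at 24 or more (14.9 to 24.9). At 191 of the 237 windows of the highest class no exact octamer was found, and a match is a description of the letters and not a bound site. These intervals, like those below, cover counting error only, and neighbouring windows can share a peak and an octamer.

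**Figure D1:**
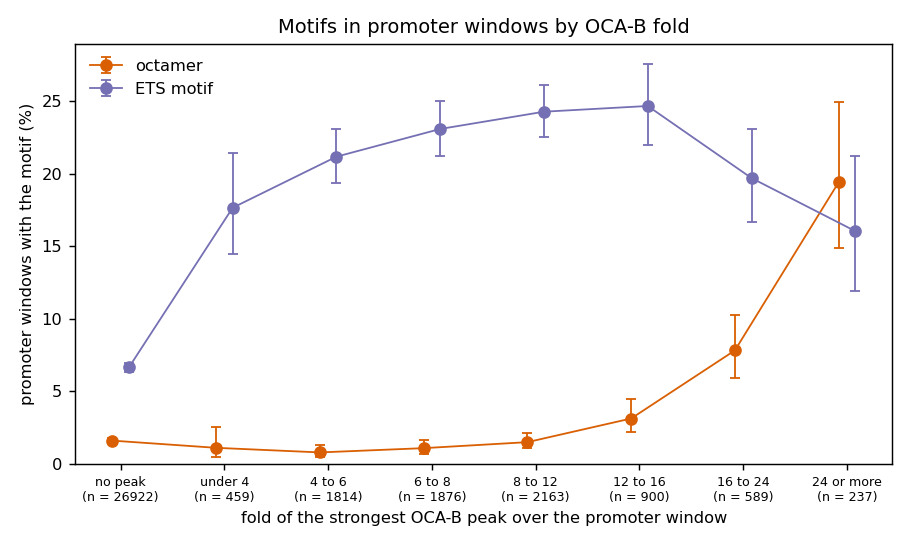
Share of RefSeq promoter windows that hold the octamer (orange) or the ETS motif CCGGAAG (purple) on either strand, by the fold of the strongest OCA-B peak over the window, with 95% Wilson intervals; n is the number of windows. The octamer share stays at or under 1.59% up to a fold of 12 and reaches 19.4% at a fold of 24 or more, while the ETS share is above 16% in every class with a peak and 6.63% without one.

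Of the other short motifs, ETS was most frequent at a middle fold, while CCAAT and TATAAA, like the octamer, had their highest share among windows with a peak at a fold of 24 or more. None of the 6 motifs searched contains another, but a window can hold several of them. In the highest class, windows of histone genes such as H2BC3, H2BC21 and H2BC4 held the octamer, CCAAT and TATAAA together. These shares thus did not rise in separate sets of windows. CCGGAAG, the core read by ETS factors such as ELF1, was present in 22.4% of windows with an OCA-B peak and 6.63% of those without. Its share was 17.6% at a fold under 4, 24.7% at 12 to 16 and 16% at 24 or more. GGGCGG, the GC box, was present in 61.5% of windows with a peak and 40.1% of those without (45% of all). CCAAT was present in 41.6% of windows with a peak and 32.5% of those without (34.6% of all), with 39.2% at a fold under 4 and 46.0% at 24 or more. CAGGTG, an E-box, was present in 19% of windows with a peak and 21.1% of those without (20.6% of all), and TATAAA in 6.43% with a peak and 13.1% without (11.5% of all). The TATAAA share was 4.67% at a fold of 8 to 12 and 12.2% at 24 or more, which is under the share in windows without a peak. The mean GC content of the windows was 60.1% with a peak and 56.8% without, which moves with the GC-rich motifs, and its part in these shares was not tested. The ETS motif was present in 10.3% of all windows.

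The octamer lay closer to the OCA-B summit than any other motif did. Among the 164 windows with an octamer and the summit of their strongest peak inside the window, the nearest octamer centre was within 50 bp of the summit in 127 (77.4%, 70.5 to 83.2), with a median distance of 23.5 bp. At the 82 of these with a fold of 16 or more the share was 86.6%. For CCGGAAG the share within 50 bp was 33.6% (n = 1184), for GGGCGG 33.4%, for CAGGTG 35.7%, for TATAAA 39.5% and for CCAAT 49.1%. A short motif that occurs often has more chances to lie near a summit, so these shares do not rank the motifs beyond the octamer, the longest of them. Of the 200 octamer matches in windows with a peak, 101 read ATGCAAAT along the strand of the gene and 99 read its reverse complement. Their median position was 115.5 bp upstream of the start.

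Replication-dependent histone genes held many of the octamers under OCA-B peaks. The octamer was found in 15 of 20 H2B windows and 11 of 16 H2A windows, which face each other in shared promoters, and OCA-B peaks lay over 13 and 10 of these. Over all windows with an octamer, 191 of 618 had an OCA-B peak (30.9%, 27.4 to 34.7). The octamer was found in 1 of 13 H3 windows and in none of the 13 H4 or 6 H1 windows. This H3 window is that of H3C4, whose listed start is also that of H2AC7, so it is the H2AC7 window counted again. H2BC12 is also counted more than once, with starts at 27146858 and 27146855. OCA-B peaks nevertheless lay over 11 of the H3, 11 of the H4 and 4 of the H1 windows, with a median fold of 14.3, 23.7 and 11.3, against 23.3 at both H2B and H2A. Near-identical histone copies can share reads, so counts per gene are uncertain. Among 19 germinal centre genes with a window, 5 held the octamer (26.3%, against 2.22% of the 15811 protein-coding genes with a window). The gene lists were chosen with earlier results of these data known, so this contrast is a description and no independent comparison. OCA-B peaks lay over the octamer at 4 of the 5 genes, MEF2B, MEF2C, P2RY8 and ST6GAL1, and not at SERPINA9. Of the 17 receptor signalling genes PRKCB held it, without an OCA-B peak over it. None of the 10 B cell identity, 13 plasma cell, 16 CD40 and NF-kB, 17 cell cycle or 11 class II genes with a window held it.

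The peaks were mostly narrow and of modest height. The median width was 295 bp, with 5% of peaks under 149 bp and 5% over 978 bp, and together the peaks covered about 22 Mb. The shortest width, 148 bp, equals the fragment length that the peak caller estimated, and 2765 peaks (4.99%) had it. The median pileup, which is the number of overlapping fragments at the summit, was 20 (range 6 to 296), and the median fold over the input was 5.64 (range 1.44 to 89.8). Both values are those of the authors' peak caller. The 10% of the list with the highest pileup carried 34.5% of the summed pileup. Wider peaks were also higher, with a Spearman's rho of 0.735 between width and pileup and of 0.765 between pileup and fold across the 55361 peaks, which share 1 library and are no replicates.

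**Figure D2:**
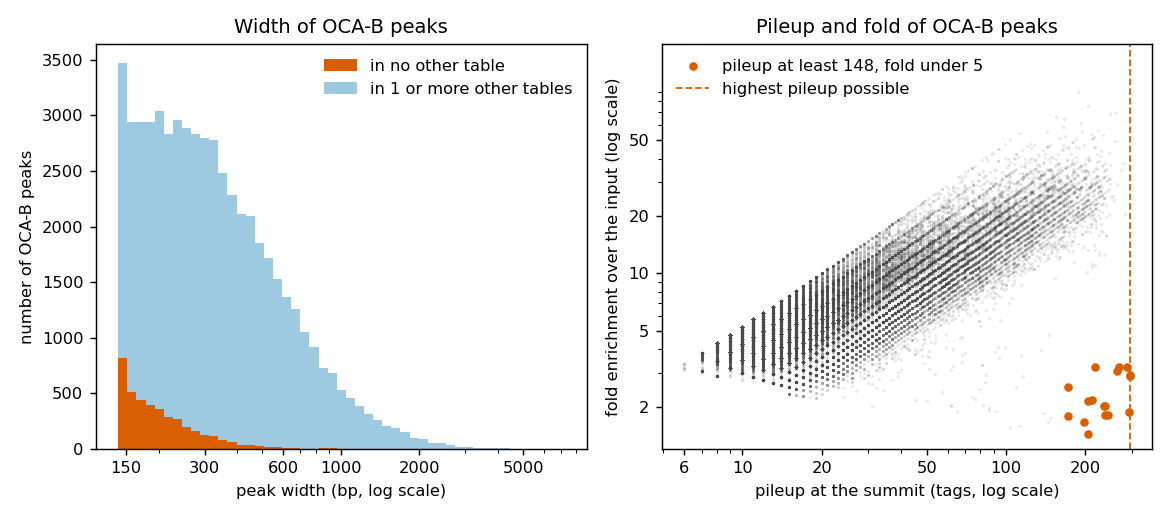
Left, number of OCA-B peaks by width in bp (log scale), with peaks found in no other table in orange and the rest in blue, stacked. Right, each peak's fold over the input against its pileup at the summit (both log scales); the dashed line is the highest pileup possible, 296, and the 17 orange points are peaks with a pileup of at least 148 and a fold under 5, which lie apart from the main cloud.

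The strongest OCA-B peaks by fold lay at gene starts, in immunoglobulin loci and at other places inside and between genes. LENG9 had a fold of 89.8, with the summit 527 bp upstream of its start (chr19:54463750-54464687), and HCN2, a pacemaker channel gene, one of 75.4 inside the gene. CD300LB, a myeloid receptor gene, was 6.61 kb from a peak with a fold of 69.5. PIM2 followed with 68.3. Folds of 66.5 and 64.3 were found inside the immunoglobulin heavy chain locus IGH (chr14:105696254-105696702 and chr14:105686076-105686463, nearest protein-coding gene TMEM121). The shared promoter of RAB33A and AIFM1 had a fold of 61.7, ZNF428 58.7 and the kappa V segment IGKV2D-29 (nearest protein-coding gene LOC124905368) 56.4. The tenth, WASHC2A, had 55.5 over 273 bp and was in 1 other table only, while the other 9 were in all 5. WASHC2A has a near-identical copy, so its reads are uncertain in place.

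The widest peaks covered immunoglobulin, lymphoid and histone genes. The widest, 7002 bp, ran over the kappa J segments (chr2:88854547-88861548, nearest protein-coding gene RPIA) with a pileup of 140 and a fold of 19.1. Peaks of 6500 bp over TCL6 (nearest protein-coding gene LOC124903372) and 5718 bp at SELPLG, the selectin ligand gene of leukocytes, were also among the first 10. ENTPD4 (5228 bp), the histone genes H2BC3 (4964 bp) and H2BC8 (4495 bp), KLHL6 (4769 bp), a B cell gene of germinal centres, LINC01991 (4282 bp, nearest protein-coding gene LPP) and a region nearest to CD99 (4183 bp) were others. Of the 280 peaks over 2 kb, 95.4% overlapped a peak in all 5 other tables, against 20.6% of the whole list, and 18.6% had the summit at a gene start. Any overlap of at least 1 bp counts, which a wide peak reaches more easily, so the overlap share is not independent of width.

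A high pileup did not always go with a high fold. With 1 tag kept per position and strand and a fragment length of 148 bp, no pileup can exceed 296, and the highest OCA-B pileup was at that limit. Of the 883 peaks with a pileup of at least 148, 17 had a fold under 5. A group of 7 lay over chr1:629052-634961, where the annotation places pseudogenes of mitochondrial genes such as MTND1P23 and MTCO1P12, with folds of 1.79 to 2.18. Another 7 lay beyond the outermost annotated gene of chromosomes 5, 10, 12, 13, 18, 22 and X, and the remaining 3 were nearest to PROS1, MYO16 and SHCBP1, each over 100 kb away. The first 4 peaks by pileup, nearest to PLEKHG4B (296), TUBB8 (295), PROS1 (294) and ANHX (288), all belonged to the 17, as did those nearest to IL9R (269) and PARD6G (264) in the first 10. Among peaks with a fold of 5 or more, the highest pileups were near BRD1 (282, fold 20.5) and ATF7IP (281, fold 38.2), both over 100 kb from the gene. High pileups were also found at FAM117A (260, fold 49.7) and in the lncRNA gene LOC101928911, 167 kb from SPACA1 (264, fold 29.5).

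Along the chromosomes the OCA-B peaks followed the genes. Density lay between 8.82 peaks per Mb on chromosome X and 55.0 on chromosome 19, a ratio of 6.23, with a mean of 18.7 over the genome. Per protein-coding gene the ratio was 2.27, with 1.62 peaks on chromosome X and 3.68 on chromosome 18. Across the 23 chromosomes peaks and protein-coding genes per Mb had a Spearman's rho of 0.918, a description over chromosomes of 1 library. Chromosome X was low on both scales, and its median pileup of 16 was under the 18 to 22 of the autosomes while its median fold of 6.21 was above the 5.48 to 5.95 there. The OCA-B list held more peaks per Mb than the longer OCT2 list on chromosome 19 alone (55.0 against 46.7).

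**Figure D3:**
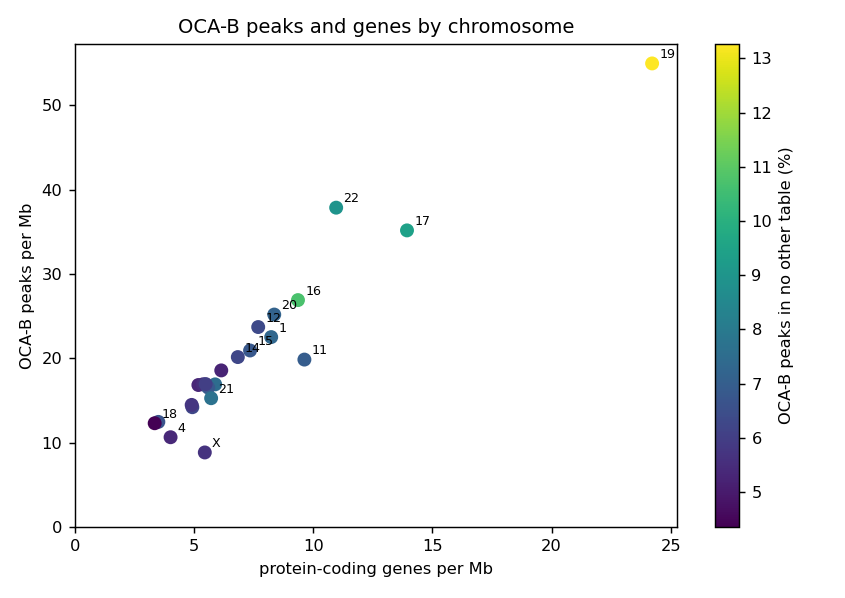
OCA-B peaks per Mb against protein-coding genes per Mb for the 23 chromosomes (some labelled), with the share of OCA-B peaks found in no other table as colour. Chromosome 19 stands at 55.0 peaks per Mb with 13.3% of peaks in no other table, and chromosome X at 8.82 peaks per Mb.

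In 1 Mb bins the median was 11 OCA-B peaks, 444 of 2972 bins held none, and 207 of the empty bins held no protein-coding gene. The densest 10% of bins carried 37.3% of the peaks. Of the 20 bins with 100 or more peaks, 10 were on chromosome 19. The densest (chr19:10000001-11000000, 172 peaks) holds S1PR2, a germinal centre confinement receptor gene, PDE4A and the chromatin remodeller gene SMARCA4. The next (chr22:22000001-23000000, 166 peaks) holds the lambda light chain locus with IGLL5 and VPREB1 and only 6 protein-coding genes. Bins with PAX5 and ZCCHC7 (chr9:37000001-38000000, 128 peaks), ID3 and E2F2 (chr1:23000001-24000000, 133 peaks) and CD27 (chr12:6000001-7000000, 127 peaks) were also among the first 10. The 3 immunoglobulin loci had a mean density above that of the genome. IGH held 112 OCA-B summits (8.66 per 100 kb), IGK 94 (6.82) and IGL 145 (16.2, with 42 of them in 1 stretch of 73.5 kb), against 1.87 per 100 kb of the genome, with highest folds of 66.5, 56.4 and 37.5.

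Gene starts held 14987 OCA-B summits within 1 kb (27.1%, 26.7 to 27.4), gene bodies 26123 (47.2%) and the space between genes 14251 (25.7%). For genes without a start position in the reference both gene ends were used. Peaks at starts had a median fold of 6.01 and a median width of 314 bp, against 5.44 and 292 bp in gene bodies and 5.50 and 286 bp between genes. The share at starts was 40.9% in the OCT1 list, 22.4% in that of MED1, 19.5% in that of CREBBP, 18.1% in that of EP300 and 17.3% in that of OCT2, so that the OCA-B list stood between OCT1 and the rest.

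Around the start the OCA-B summits formed 2 separate rises. The higher was upstream, with 1446 summits in the last 100 bp before the start and 1277 in the 100 bp before that. The number dropped to 402 at 200 to 300 bp downstream and came to 604 at 600 to 700 bp. The upper 50% of peaks by fold put 1116 summits in the last 100 bp before the start, and the lower 50% put 330 there. At 600 to 700 bp downstream the order turned, with 250 of the upper and 354 of the lower 50%. Upstream and downstream summits also differed in company, mainly at OCT1. Summits 0 to 250 bp upstream had a median fold of 7.82, and 71.5% of their peaks overlapped OCT1 and 56.7% MED1. Summits 250 to 1000 bp downstream had a median fold of 5.19, with 24.7% at OCT1 and 60.1% at MED1. In no other table were 10.9% of them, against 3.95% upstream. The upstream and downstream shares were 73.6% and 65.2% at OCT2, 53.6% and 49.2% at CREBBP and 80.0% and 77.9% at EP300.

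**Figure D4:**
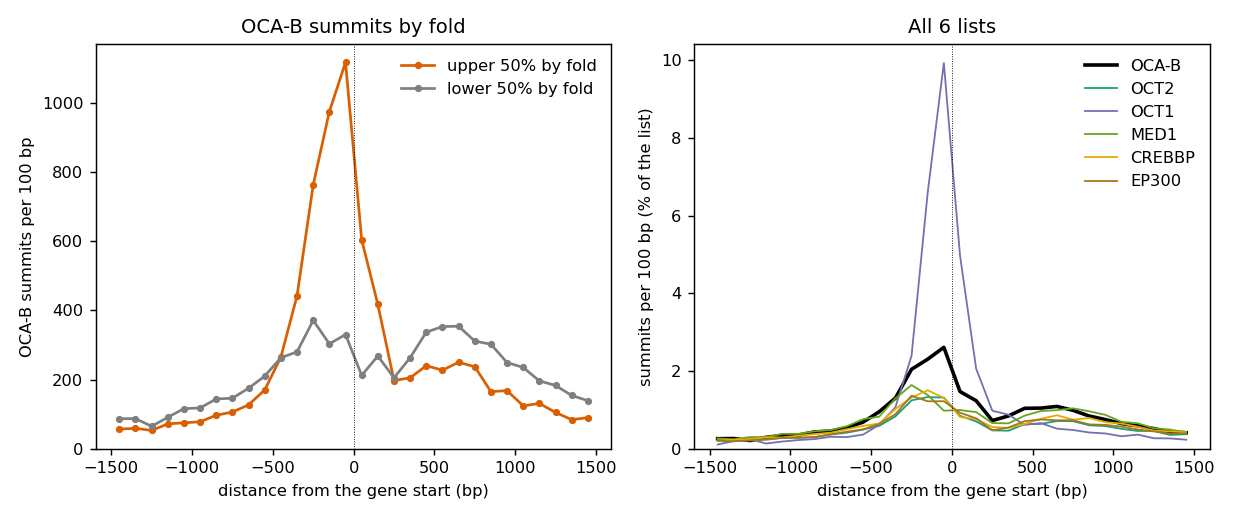
Summits per 100 bp by distance from the nearest gene start, for genes whose start and strand are known. Left, OCA-B summits in the upper (orange) and lower (grey) 50% of the list by fold: the upper 50% peaks at 1116 just upstream, and the lower 50% has a second rise to 354 downstream. Right, the 6 lists as a percent of each list, with OCA-B in bold and OCT1 highest just upstream of the start.

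Of 19835 protein-coding genes, 9122 (46%) had an OCA-B peak within 1 kb of the start, and 575 (2.9%) had 10 or more summits in the gene body. These shares are the background for the lists below, which describe where peaks lie and not which genes OCA-B controls. The lists were chosen with earlier results of these data known. Where no start was known, either gene end counted as the start, also for the start folds below. Peaks are counted for a gene when it is the nearest protein-coding gene within 100 kb, and the median gene had 1.

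B cell genes carried OCA-B at the start almost without exception. The count was 15 of 16 for B cell identity genes, 23 of 24 for germinal centre genes and 20 of 20 for B cell receptor signalling genes, with median start folds of 15.8, 8.82 and 12.9 (7.64 over all genes with a peak at the start). The members without one were CR2 and SERPINA9. In the identity list the start fold was 37.7 at CD37, 32.5 at SPIB, an ETS factor gene, 25.9 at MS4A1, which encodes CD20, and 23.7 at CD79B, a subunit of the B cell receptor. For CD37, MS4A1 and CD79B no start was known, and the value is the highest within 1 kb of either gene end. PAX5, the factor that fixes B cell identity, had 37 peaks nearest to it, the kinase gene BLK 33 and EBF1 32. In the germinal centre list BACH2 had 47, ST6GAL1 46, KLHL6 43 and FOXO1 41, and the median was 16. In the receptor signalling list PLCG2, the phospholipase downstream of the receptor, had 51, GRB2 34 and the kinase gene SYK 33, and 9 of the 20 had 10 or more summits in the body.

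Genes of plasma cells, of the response to CD40 and of antigen presentation were read in the same way. Plasma cell genes had OCA-B at the start in 14 of 16 cases, led by EDEM1 and the unfolded protein factor gene XBP1 with 22 nearest peaks each and JCHAIN with 17, and MZB1 had the highest start fold of the list, 29.4. SDC1 and SSR4 had none at the start. The CD40 and NF-kB genes had it in 13 of 18, with TNFAIP3, an inhibitor of NF-kB, at 17 nearest peaks and BIRC3 at a start fold of 23.8. TRAF2, TRAF3, RELA, EBI3 and CCL22 had none at the start. Class II antigen presentation genes had it in 7 of 13, with CIITA, their master regulator, at 13 nearest peaks. HLA-DRB1, HLA-DPA1, HLA-DPB1 and HLA-DOA had no peak in the gene or nearest to it among the peaks used here. Another 1699 OCA-B peaks lay on alternate contigs, which were left out. Whether any of them lay over copies of these class II genes was not tested.

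Housekeeping lists were also covered. Ribosomal protein genes had OCA-B at the start in 72 of 73 cases (median start fold 10.1), with RPL8 the exception, cell cycle genes in 19 of 20 (8.89), with CCNE1 the exception, and replication-dependent histone genes in 61 of 69 (21.7). The OCA-B start count thus did not separate B cell genes from genes used in every dividing cell. The median number of nearest peaks was 16 for germinal centre, 14.5 for receptor signalling, 8 for B cell identity and 7 for plasma cell genes. It was 4 for cell cycle, 3 for ribosomal protein, 3 for CD40 and NF-kB, 2 for class II and 2 for histone genes. These numbers were not scaled by gene length.

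Markers of other cell types were mostly free of OCA-B at the start. The count was 3 of 12 for T cell genes (CD28, CD3E and ZAP70), 3 of 12 for myeloid genes (FCN1, CEBPE and ELANE), 1 of 10 for liver genes (TF) and 0 of 10 for both erythroid and neuron genes. CD28 was the exception in strength, with a start fold of 26.6 and 10 nearest peaks. Within single genes of these lists peaks still occurred, such as 4 in the erythropoietin receptor gene EPOR and 4 in RBFOX3.

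OCA-B lay on its own gene and on those of both partners. POU2AF1, without a start in the reference, had 10 summits in the body and a fold of 16.4 at a gene end (chr11:111379095-111379375, pileup 59). POU2F2, which encodes OCT2, had 15 in the body, a start fold of 6.83 and its strongest peak, 1512 bp wide with a fold of 13.3, inside the gene. POU2F1 had 14 in the body, and its strongest peak was the promoter peak over the octamer shown above (1430 bp, pileup 200). Of the genes with an octamer described in B cells, CXCR5 (start fold 20.2), CD79B (23.7), BTK (12.7), SPIB (32.5) and MS4A1 (25.9) had OCA-B at the start and CD36 had no peak. RefSeq windows were at hand for 4 of the 6, but not for CD79B and MS4A1, whose values are from either gene end. None of the 4 held the exact octamer.

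Long genes held the most OCA-B summits. AUTS2 had 59 over 1195 kb, the homeobox gene CUX1 53, FOXP1 51, PLCG2 49, GSE1 47, RAPGEF1 and SNX29 46 each, OSBPL10 and SEPTIN9 44 each and ELF1 43. Length and number of summits had a Spearman's rho of 0.411 across the 19835 genes. Per length the order was different. AUTS2 had 0.494 summits per 10 kb, while ELF1, an ETS factor gene, had 3.32 and RAPGEF1 2.82. SNX29 was the only one of the 10 without OCA-B at its start. Among all protein-coding genes with 5 or more summits, EIF4A2 (15.8 per 10 kb), the chemokine receptor gene CXCR4 (15.8), IMPDH2 (13.8), IER2 (13.3) and LYL1 (13.1) were the densest, and these 5 were named after their values were seen.

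Other gene classes were compared on both gene ends within 1 kb, where protein-coding genes had OCA-B in 46.5% of cases. Small nuclear RNA genes had it in 66 of 147 (44.9%), transfer RNA genes in 197 of 443 (44.5%) and immunoglobulin and T cell receptor V segments in 97 of 234 (41.5%). The share was 18.8% for lncRNA, 12.1% for miRNA, 11.5% for snoRNA and 4.07% for pseudogenes. Many small RNA genes have near-identical copies, so the place of their reads is uncertain.

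Joining OCA-B peaks no more than about 12 kb apart gave 21277 loci, of which 10748 held a single peak and 10529 held several. The median gap between neighbouring peaks was 5.21 kb. The 2823 loci with 5 or more peaks held 44.2% of all peaks, and the 134 with 20 or more held 3553. Peaks in the largest loci had a median fold of 5.28, against 5.72 for single peaks. Their median pileup was 21, against 18, and their median width 345 bp, against 256 bp. They lay at a gene start in 17.7% of cases, against 35.6% in loci of 2 to 4 peaks and 19.3% of single peaks. In no other table were 4.02% of them, against 10.1% of single peaks.

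The first loci by summed pileup lay at genes of B cells, at a histone cluster, at a small nuclear RNA array and at other genes. The locus over ID3, an inhibitor of E proteins, and E2F2 led both orders, with 64 peaks over 143 kb (chr1:23524481-23667976), a summed pileup of 2631 and a median fold of 5.04. The second ran between BCL6, the master repressor of germinal centre B cells, and LPP (chr3:187899078-187983000, 83.9 kb, 31 peaks, summed pileup 2090). It lies 154 kb from BCL6 and holds no protein-coding gene. The third, nearest to CCDC200 on chromosome 17, had 15 peaks with a median fold of 11.2 over 8 small nuclear RNA genes, a tandem array whose copies share reads. ST6GAL1, a sialyltransferase gene of B cells (41 peaks over 103 kb), BTG2, an antiproliferative gene (45 peaks over 83.1 kb), FRMD8 (50 peaks over 108 kb) and the histone cluster at H3C4 (31 peaks over 79.5 kb, with 12 histone genes) followed. EEIG1 (42 peaks), GRHPR (28) and FAM167A (32) completed the first 10. By number of peaks, IGLL5 in the lambda locus (42 over 73.5 kb) joined ID3, FRMD8, BTG2 and EEIG1 in the first 5.

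**Figure D5:**
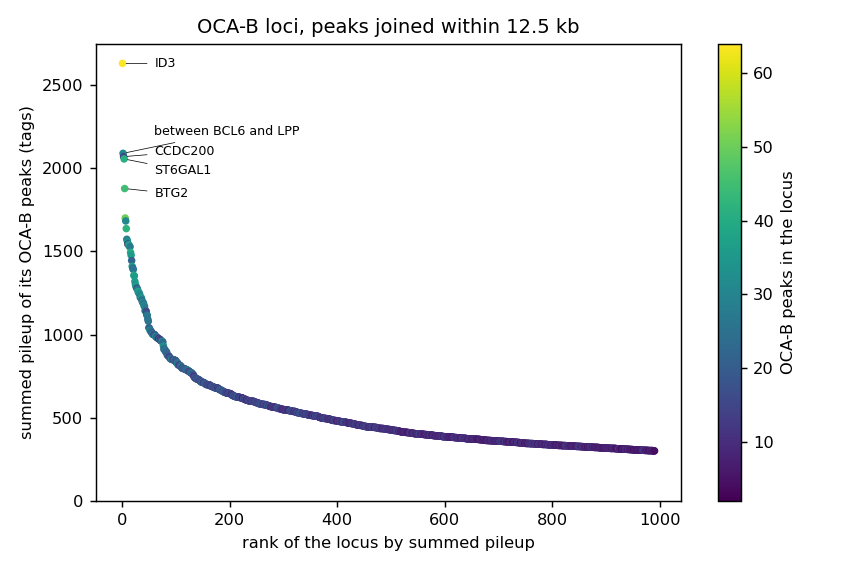
Summed pileup of the first 990 OCA-B loci against their rank, with the number of peaks in each as colour and the first 5 labelled by the nearest protein-coding gene. ID3 stands alone at 2631 with 64 peaks, and the 3 loci after it lie between 2056 and 2090.

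The first 200 loci by summed pileup held 8.07% of the peaks and 10.9% of the summed pileup. In no other table were 4 of the 50 peaks of the FRMD8 locus and 5 of the 42 of the EEIG1 locus. None of the 64 of the ID3 locus or the 31 of the BCL6 to LPP locus were, and the others of the first 10 held 0 or 1 each. The share was 7.11% over the list and 4.02% in loci of 20 or more peaks, and such small counts do not separate the loci.

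In no other table were 3938 OCA-B peaks (7.11%, 6.90 to 7.33), counted by an overlap of at least 1 bp. At the other end, 11385 (20.6%) overlapped all 5 other lists. The median OCA-B fold was 4.41 for peaks in no other table, 4.66 with 1, 4.87 with 2, 5.01 with 3, 5.71 with 4 and 11.7 with all 5. Peaks in no other table were narrower (median 186 against 309 bp) and lower (median pileup 12 against 21) than those shared. A narrow peak also has fewer chances of an overlap of at least 1 bp, and the part of this in the width contrast was not tested. In 58.5% of the peaks in no other table the −log10 q was under 5, against 22.9% of the shared peaks. With the list cut by OCA-B fold into 10 classes of equal size, the share in no other table was 12.8% in the weakest, 13.2% in the third and 0.741% in the strongest.

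Another list's peak was within 500 bp of 1555 of these peaks (39.5%), and the median distance was 0.982 kb. In a joined locus with a shared OCA-B peak were 68.5% of them. They were alone in their locus in 27.5% of cases, against 18.8% of shared peaks. Only 780 (19.8%) were more than 10 kb from any peak of another list. They lay at a gene start in 30.9% of cases, against 26.8% of shared peaks, in a gene body in 40.2%, against 47.7%, and between genes in 28.9%, against 25.5%. Chromosome 19 had the highest share (13.3%, 427 peaks), followed by chromosome 16 (10.7%) and chromosome 17 (9.43%), and chromosome 18 had the lowest (4.36%). Across the 23 chromosomes the share had a Spearman's rho of 0.761 with protein-coding genes per Mb, again as a description.

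A small number were strong. A fold of 20 or more was found at 19 peaks in no other table (0.482%), against 1942 shared peaks (3.78%). Among the strongest were a peak in RASA4, a Ras regulator gene with near-identical copies (fold 39.2, pileup 171), and one in the IGH V region over IGHVIII-38-1 (35.8, nearest protein-coding gene TMEM121). LOC107983983 (32.5, 10.2 kb away), the autophagy receptor gene SQSTM1 (31.1), the channel gene TRPM2 (30.3), NACC2 (25.6, 15.8 kb away), PADI1 (25.6) and SEC14L5 (24.8) were also among the first 10. Of the 8 named here only SEC14L5 had the summit at a gene start. The widest was in PRR36 (2091 bp, fold 11.9), followed by PRKCA (1008 bp), NTN5 (965 bp), PPP1R15B (961 bp) and RBM15B (944 bp). Whether these sites hold the other proteins below the threshold of their tables was not tested.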

How the data were processed

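ChIP-seq libraries of OCI-Ly7 cells had 1 sample per protein. Per the submitters' processing notes, MACS2 2.1.1.20160309, SAMtools 1.3.1, CASAVA 1.8.2 and Bowtie2 2.3.2.2 were used with the build hg38. Per the file headers, each library was called by itself against 1 input, in narrow mode, with 51 bp tags, 1 tag per position, a q threshold of 0.05 and an effective genome of 2.7e+09. Each deposited table gives, as the authors' caller wrote them, the position, the pileup signal, the −log10 p-value and −log10 q-value and the fold over the input, a ratio.

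Peaks on chromosomes 1 to 22 and X were kept, and peak values were used within the OCA-B list. Genes came from RefSeq GRCh38.p14, whose chromosomes share their coordinates with hg38. Starts and strands were given for 15811 of 19835 protein-coding and 11383 of 17810 lncRNA genes, and both gene ends stood in for the rest. Of 59094 genes, 750 were dropped because they seemed to carry scaffold positions under a chromosome's name (before the first known start of chromosomes 13, 14, 15, 21 and 22, or unnamed genes and immunoglobulin segments without a known start in the first 2 Mb), and others may remain. Motifs were searched in RefSeq promoters with exact letters. Under the summits elsewhere they were not searched, since no genome was used here. Interval routines were tested on simulated data. Python 3.11.15 was used with pandas 2.3.3, numpy 2.4.6 and scipy 1.17.1. With no replicate there was no test, and precision is given as 95% Wilson intervals.

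Genes were named as nearest to the first 10 peaks by fold, width and pileup, to the first 10 loci by summed pileup and 5 by number, and to the first 10 by fold and 5 by width in no other table. Others named were the 10 genes with the most summits, members of the gene lists, and the POU genes. Genes named for a high fold at the start within a list, genes of the densest bins and the densest gene bodies were picked after their values were seen. Some genes that these rules name are not reported here. Promoters shown were limited to 2 per gene family. The members and lists were chosen with earlier results of these data known. Alternatives were other q thresholds, windows, overlaps, joining distances and motif lengths.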

Additional observations from a re-analysis of the deposited data

Results flagged for a closer look

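The OCA-B table also holds 2086 peaks outside chromosomes 1 to 22 and X (3.63% of the table), on 166 sequences that the comparisons above do not use. Of these, 1699 lay on 137 alternate contigs. Their median fold was 5.73, against 5.64 for the peaks used, and for the alternate contigs it was 5.78.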

How the results depend on the processing

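Each factor had 1 library, so leaving out a replicate was not possible. No paired analysis was possible because each factor has a single library. A count was taken as moved when it changed by more than 1.5 times, and a share, median or ratio when it left its 95% interval. By this measure 24 of 36 alternatives of the leading results moved the value and 12 did not, among them 41280 peaks at a −log10 q of at least 5 and 7377 loci of several peaks away from starts. At a −log10 q of at least 10 there were 25151 peaks. The median width was 353 bp at a −log10 q of at least 5 and 439 bp in the stronger 50%, and the median pileup 25 and 35. The start share was 17.9% within 500 bp, 48.1% within 5 kb, 30.3% in the stronger 50%, 23.3% with protein-coding genes only and 22.2% with known starts only, an alternative added once the data had been seen. The share in no other table was 9.78% when the other list had to cover 50% of the peak, 11.6% by summits within 250 bp, 4.30% when peaks within 500 bp counted as shared, 3.96% for OCA-B peaks and 10.9% for other lists at a −log10 q of at least 5. The stronger 50% formed 5845 loci of several peaks. The share in loci of 5 or more was 27.2% joined within 5 kb, 60.4% within 25 kb, 38.6% away from starts and 22.3% in the stronger 50%. With the 7 letters ATGCAAA the promoter shares were 4.76% with and 4.35% without a peak. With the summit inside the window the octamer share with a peak was 3.34%, and at a fold of 24 or more it was 29.0%. In promoter windows that do not overlap each other, another later addition, it was 2.55% with and 1.69% without a peak and 20% at a fold of 24 or more. Of 32 alternatives for the gene lists 4 changed the count by more than 1.5 times, all with the 5 kb window, which gave 5 myeloid, 3 erythroid, 3 liver and 1 neuron genes. Smaller changes occurred too, such as 11 CD40 and NF-kB and 5 class II genes at a −log10 q of at least 5. Peaks are limited by the depth of 1 library and 1 input, and shares in no other table by the thresholds and depths of 6 tables. A pileup near 296 cannot rank peaks.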
